A study of Mus musculus with 24 samples.

Results

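In NUP98-JARID1A mouse leukaemia cells treated with VTP50469, 5983 MLL1 regions appeared at places where no untreated line of the study had an MLL1 region. They were chosen from the peak list of the treated cells as the regions on chromosomes 1 to 19 and X that share no base with any MLL1 region of the 4 DMSO libraries. They made up 24.2% of the 24714 regions of that list on these chromosomes. Another 13959 regions shared bases with the NUP98-JARID1A DMSO list, and 4772 shared bases only with the DMSO list of another line. The study measured binding by chromatin immunoprecipitation sequencing (ChIP-seq) in cultured mouse leukaemia lines, each with its own NUP98 fusion and kept in IL-3, IL-6 and stem cell factor. VTP50469 is a small molecule that blocks the contact between menin and MLL1, and DMSO is its solvent.

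NUP98-JARID1A cells were given DMSO or 2 µM VTP50469 for 96 h and probed for MLL1. The comparison lists are MLL1 in NUP98-HOXD13 (DMSO or 2 µM, 96 h), in NUP98-HOXA9 (DMSO or 2 µM, 72 h) and in NUP98-NSD1 (DMSO or 200 nM, 96 h). The sample title of the treated NUP98-HOXA9 MLL1 library gives no time, while that of its DMSO library gives 72 h. For NUP98-NSD1 the sample labels give 200 nM while the treatment protocol names 2 µM, so its dose is uncertain. Menin lists come from NUP98-HOXD13 and NUP98-HOXA9. For H3K4me3, which is histone H3 with 3 methyl groups on lysine 4, the lists come from NUP98-HOXA9, and all of these are DMSO or 2 µM for 96 h. No Menin or H3K4me3 list of NUP98-JARID1A was analysed here. Every condition is 1 library of 1 line, so no value below has a replicate error and no p-value was computed. Intervals are 95% Wilson intervals and cover counting error over regions, genes or promoter windows only. The number of regions is the only depth the lists show: on chromosomes 1 to 19 and X the 4 MLL1 DMSO lists held 7064 to 22339 regions. The NUP98-JARID1A list held 15632 regions in DMSO and 24714 after treatment, 1.58 times as many, and NUP98-JARID1A was the only line whose list was longer after treatment. Unequal depth or immunoprecipitation of the libraries cannot be told apart from the treatment.

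MLL1 (also called KMT2A) is a histone methyltransferase that deposits methyl groups on lysine 4 of histone H3, mostly at gene starts with CpG islands. Menin is an adaptor that holds MLL1 at part of its targets, the HOX genes and their cofactors among them. NUP98-JARID1A joins a nuclear pore protein to the end of the demethylase JARID1A (KDM5A) that carries a reader domain for H3K4me3. As a background to the gene classes, neutrophils and macrophages mature from myeloid progenitors, and the ETS factor PU.1 and the C/EBP factors bind many of their promoters and enhancers.

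Promoters covered by new sites are shown first, as examples of what lies under them. The 6 genes were chosen after their values were seen, several from the myeloid gene lists, so neither their classes nor their matches stand for the 329 genes with a new site over the promoter. Shown are the 250 bases before each gene start, from RefSeq (GRCm38.p6, the build of the lists), each written 5′ to 3′ on the strand of its gene. Capitals mark matches on either strand to AGGAAG (an ETS core with a flank), GAGGAAGT (PU.1-like, which contains AGGAAG), TTGCNNNAA (C/EBP), TGANTCA (AP-1), TGTGGT (RUNX) and TATAAA (core promoter box). Cd300ld encodes a myeloid surface receptor, C1qc a chain of complement C1q made by macrophages, Trem1 an activating receptor of neutrophils and monocytes, and Stfa3 a cysteine protease inhibitor found in neutrophils. Retreg1 encodes a receptor for autophagy of the endoplasmic reticulum, and Il1b the cytokine interleukin-1 beta. The Retreg1 start used here lies inside the span of the gene.
Cd300ld, chr11:114989887-114990136, minus strand: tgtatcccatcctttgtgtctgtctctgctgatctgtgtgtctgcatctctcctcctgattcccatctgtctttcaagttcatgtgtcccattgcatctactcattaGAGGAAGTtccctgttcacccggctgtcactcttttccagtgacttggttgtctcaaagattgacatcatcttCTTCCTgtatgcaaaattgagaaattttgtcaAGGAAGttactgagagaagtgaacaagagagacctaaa
C1qc, chr4:136892915-136893164, minus strand: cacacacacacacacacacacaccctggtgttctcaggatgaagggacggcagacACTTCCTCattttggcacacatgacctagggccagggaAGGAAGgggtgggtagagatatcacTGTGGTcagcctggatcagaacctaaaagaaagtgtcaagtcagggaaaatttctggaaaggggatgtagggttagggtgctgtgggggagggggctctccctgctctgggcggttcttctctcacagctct
Trem1, chr17:48232489-48232738, plus strand: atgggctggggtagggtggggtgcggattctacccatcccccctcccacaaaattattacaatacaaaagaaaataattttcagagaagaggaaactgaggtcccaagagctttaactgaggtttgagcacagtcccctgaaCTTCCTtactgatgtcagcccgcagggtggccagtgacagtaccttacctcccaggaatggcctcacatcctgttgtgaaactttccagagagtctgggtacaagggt
Stfa3, chr16:36455393-36455642, minus strand: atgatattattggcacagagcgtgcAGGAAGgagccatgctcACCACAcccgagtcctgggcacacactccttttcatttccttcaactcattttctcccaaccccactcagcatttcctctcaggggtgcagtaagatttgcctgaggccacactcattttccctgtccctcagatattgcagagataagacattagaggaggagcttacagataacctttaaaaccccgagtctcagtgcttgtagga
Retreg1, chr15:25940452-25940701, plus strand: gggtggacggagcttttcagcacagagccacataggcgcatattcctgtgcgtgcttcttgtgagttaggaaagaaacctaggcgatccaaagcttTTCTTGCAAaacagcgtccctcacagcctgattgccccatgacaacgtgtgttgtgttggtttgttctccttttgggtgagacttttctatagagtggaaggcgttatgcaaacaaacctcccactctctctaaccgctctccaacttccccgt
Il1b, chr2:129371140-129371389, minus strand: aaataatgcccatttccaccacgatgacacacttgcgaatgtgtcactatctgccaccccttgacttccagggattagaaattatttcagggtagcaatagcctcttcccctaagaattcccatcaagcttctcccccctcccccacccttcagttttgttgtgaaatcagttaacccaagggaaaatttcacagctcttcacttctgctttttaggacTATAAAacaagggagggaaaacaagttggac
The Cd300ld promoter held 3 matches to AGGAAG, 1 of them within GAGGAAGT, and the C1qc promoter held 2, again with 1 inside GAGGAAGT, beside 1 RUNX match. Trem1 and Stfa3 each had 1 AGGAAG match, and Stfa3 also 1 RUNX match. Retreg1 had 1 C/EBP match and Il1b 1 match to TATAAA.

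New sites were narrow and of low enrichment compared with the rest of the treated list. These values belong to the measure that chose the sites and are given as a description. Their median width was 292 bp, against 681 bp for regions shared with the NUP98-JARID1A DMSO list and 365 bp for regions shared only with another line. Median fold enrichment, the authors' own value per peak, was 6.46 in new sites, 16.3 in regions shared with the line's DMSO list and 7.22 in those shared with another line. The highest fold of a new site was 34.6, and the highest of the whole list 166. When the list was divided into 10 groups of like size by −log10 q, the share of new sites was 52.5% in the weakest, 26.2% in the fifth and 0.121% (3 regions) in the strongest. The weakest new site had a −log10 q of 2.02, and that of the weakest region in the NUP98-JARID1A DMSO list was 2.05, so a region missing from a DMSO list may have had enrichment below this limit. At the border of the rule, new sites touched a DMSO region with 0 bases between them on chromosomes 3, 6 and 7, with folds of 3.70, 6.46 and 4.94. Regions on chromosomes 19, 6 and 2 that shared 3, 4 and 10 bases with a DMSO region fell outside it, with folds of 4.94, 4.06 and 12.9. Few regions were this close: 36 new sites lay within 100 bases of a DMSO region, and 74 regions outside the rule shared 1 to 100 bases with one. The number itself depends on the length of the treated list, since 1874 new sites were left when the treated list was limited to its strongest 15632 regions. Compared with the NUP98-JARID1A DMSO list alone, 10755 treated regions shared no base.

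Most new sites lay away from gene starts. Of the 5983, 577 (9.64%, interval 8.92% to 10.4%) were within 1 kb of the start of a gene with known strand, against 36.6% of the whole treated list. Among regions shared with the NUP98-JARID1A DMSO list the share was 52.7% (51.8% to 53.5%), and among those shared only with another line 23.2% (22.1% to 24.5%). Another 300 new sites (5.01%) were within 1 kb of an end of a gene whose strand was not known, against 9.1% of the list, and 189 (3.16%) were within 1 kb of a 3′ end, against 2.15%. The largest class was the rest of the gene body, with 2765 sites (46.2%, against 31.7% of the list), and 2152 sites were intergenic (36.0%, against 20.5%). Together, 82.2% of new sites were in these last classes, 34.5% of the regions shared with the line's DMSO list and 66.4% of those shared only with another line. The intervals of these shares did not overlap between the 3 kinds of region except at 3′ ends, where new sites and regions shared with another line had overlapping ones. Exons and introns were not told apart, because the gene table gives gene spans only. The share near gene starts was 4.86% among the new sites of the shortened treated list and 15.7% against the line's own DMSO list alone.

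**Figure D1:**
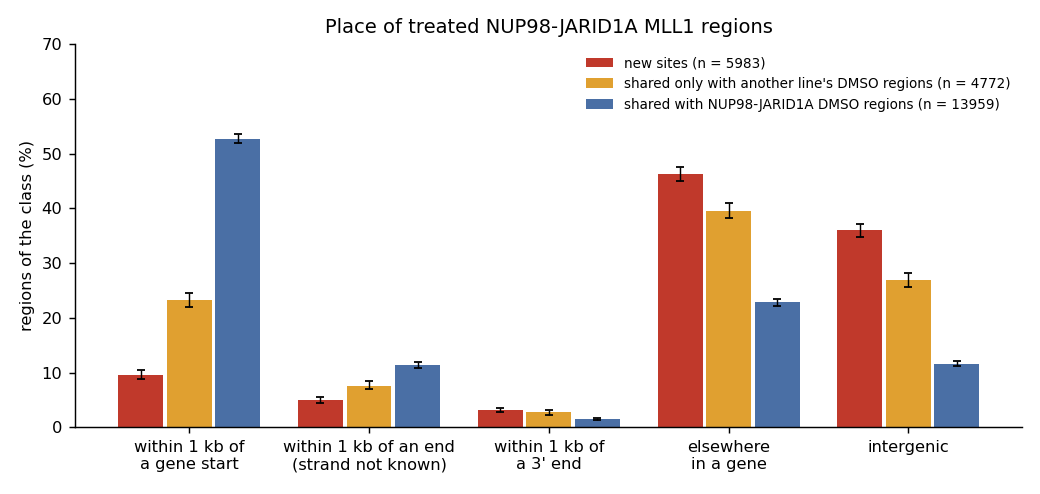
Share of treated NUP98-JARID1A MLL1 regions (y axis, percent) in each place relative to RefSeq genes (x axis), for new sites and for the regions shared with DMSO lists, with 95% Wilson intervals as bars. Within 1 kb of a gene start the new sites are at 9.64% and the regions shared with the line's own DMSO list at 52.7%, while new sites are highest elsewhere in genes and between genes. The rule removed regions that any line had in DMSO, which can set part of this order by construction.

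From its summit a new site had a median of 33000 bp to the nearest protein-coding gene start, against 1035.5 bp for regions shared with the line's DMSO list and 17424 bp for those shared only with another line. Only starts of genes with known strand were used, so a distance is too long where a nearer gene had no known strand. No such start was available on chromosome 18, so 5814 of the 5983 new sites had a distance. Of the regions with a distance, 26.0% of new sites were within 10 kb of such a start. The share was 63.0% in regions shared with the line's DMSO list and 39.5% in those shared with another line. Few new sites flanked an existing MLL1 region: 326 (5.45%) lay within 1 kb of a region of the NUP98-JARID1A DMSO list, and the median distance to one was 33604 bp. Most also lay alone, since 5020 had no other new site within 10 kb. The largest group held 7 sites within chr7:64070335-64089806, with no protein-coding gene within 10 kb. Of 5 groups of 4, those with a protein-coding gene within 10 kb lay at Notch2, a receptor gene of cell fate signalling, at Syne1 and at Tbc1d8, and a group of 3 at Cd177. The share of treated regions that were new was between 19.8% (chromosome 11) and 29.2% (X) on every chromosome.

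**Figure D2:**
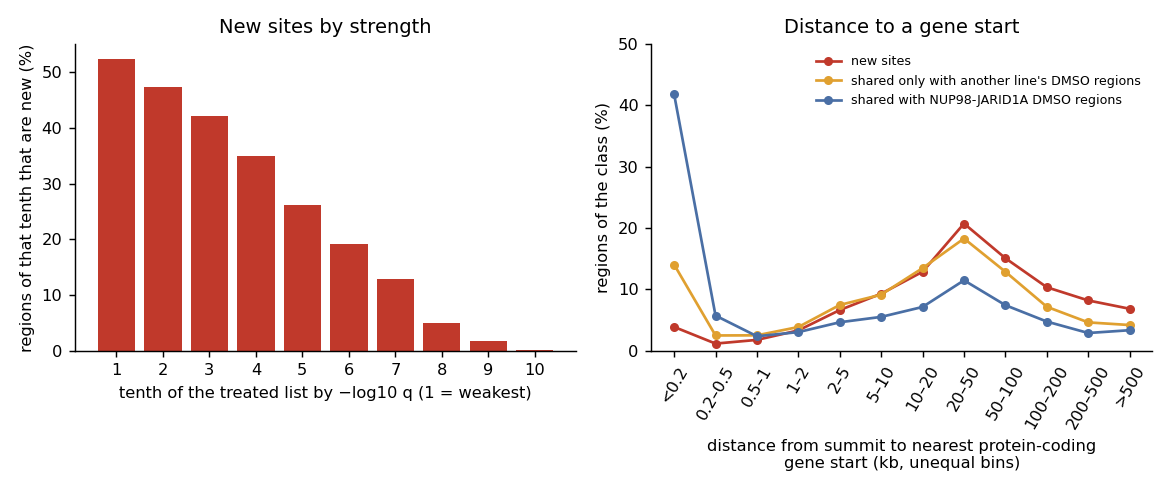
Left, the share of regions that are new (y axis, percent) in 10 groups of the treated list by −log10 q (x axis, 1 is the weakest), from 52.5% to 0.121%. Right, the share of each kind of region (y axis, percent) by distance from its summit to the nearest protein-coding gene start (x axis, kb, in unequal bins): regions shared with the NUP98-JARID1A DMSO list peak under 0.2 kb and new sites between 20 and 50 kb. Only starts of genes with known strand were used, and regions on chromosome 18 had no distance and are left out.

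The place of new sites was also set beside that of other regions of like fold, since weak regions make up most of the new ones. In each of 5 bins of fold, new sites were near a gene start less often than regions shared with either kind of DMSO list. Below a fold of 5 the share was 16.1% (14.3% to 18.0%) in 1548 new sites and 32.3% (28.6% to 36.2%) in 567 regions shared with the line's DMSO list. At a fold of 15 or more it was 5.08% (3.11% to 8.22%) in 295 new sites and 56.2% (55.1% to 57.3%) in 7674 shared ones. So the share near gene starts was lower in strong than in weak new sites, the opposite order to that in regions the line already had in DMSO. In regions shared only with another line it was 25.7% below a fold of 5 and 10.5% from a fold of 15, and in that last bin the interval (7.72% to 14.04%) overlapped that of new sites. The bins match fold only. The rule removed regions that any line had in DMSO, which can set part of these differences by construction.

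**Figure D3:**
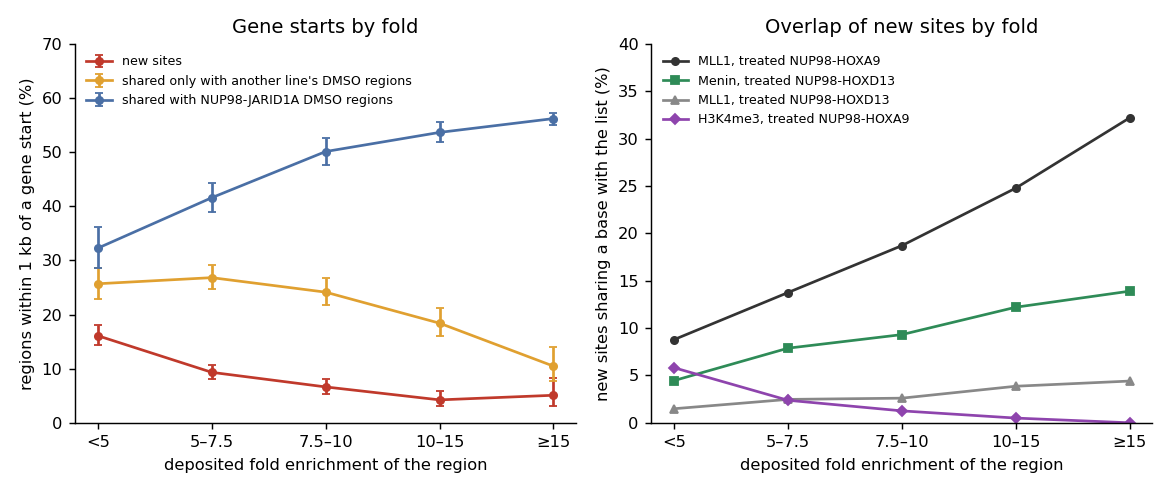
Left, the share of regions within 1 kb of a gene start (y axis, percent) in bins of deposited fold (x axis) for the 3 kinds of treated region, with 95% Wilson intervals: new sites go from 16.1% to 5.08%, and regions shared with the NUP98-JARID1A DMSO list from 32.3% to 56.2%. Right, the share of new sites that share a base with 4 treated lists (y axis, percent) in the same bins (x axis): the highest line, MLL1 in NUP98-HOXA9, goes from 8.79% to 32.2%. The rule removed regions that any line had in DMSO, which can set part of the differences on the left by construction.

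Of the other treated lists, MLL1 in NUP98-HOXA9 shared most new sites, 948 (15.8%, interval 14.9% to 16.8%), against 68.6% of the whole treated NUP98-JARID1A list. Treated MLL1 in NUP98-HOXD13 shared 151 (2.52%, against 52.7%). Treated MLL1 in NUP98-NSD1, a list of 997 regions labelled 200 nM, shared 0 (interval up to 0.0642%, against 3.47%). The rule sets part of this gap by construction, since it removes every site at which these lines had MLL1 in DMSO, so nothing is read from it. Counted over regions that are new by the same rule in each line, 937 of the new NUP98-JARID1A sites (15.7%) were shared with NUP98-HOXA9, which is 39.9% of the 2347 new regions there. With NUP98-HOXD13 148 were shared, 2.47% of the NUP98-JARID1A sites and 43.1% of the 343 new in that line. The same rule called 10.9% of the treated list new in NUP98-HOXA9, 2.35% in NUP98-HOXD13 and 7.92% (79 regions) in NUP98-NSD1. New regions of NUP98-HOXA9 had a like place, with 8.35% (7.30% to 9.54%) near a gene start and 37.5% intergenic. Stronger new sites were more often shared: the part found in treated NUP98-HOXA9 MLL1 was 8.79% below a fold of 5 and 32.2% from a fold of 15. This rise was not particular to new sites. Between the same bins the part went from 39.9% to 96.3% in regions shared with the line's DMSO list. In regions shared only with another line it went from 58.8% to 93.1%. In the shortened treated list 23.9% of new sites were shared with treated NUP98-HOXA9 and 3.31% with treated NUP98-HOXD13. Against the line's own DMSO list alone these shares were 42.7% and 21.6%.

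Menin in NUP98-HOXD13 lay at about as many new sites without as with the inhibitor. Its DMSO list shared 524 (8.76%, 8.07% to 9.50%, against 61.8% of the treated MLL1 list) and its treated list 488 (8.16%, 7.49% to 8.88%, against 58%). Of these, 259 were in both, 265 only in DMSO and 229 only after treatment. The rule removed every site at which NUP98-HOXD13 had MLL1 in DMSO, which sets part of these low shares by construction. Against the NUP98-JARID1A DMSO list alone, the DMSO and treated Menin lists shared 32.5% and 28.9%. Menin in NUP98-HOXA9 shared 68 new sites in DMSO (1.14%, against 34.2%) and 2 after treatment (0.0334%, against 1.36%), when its list held 345 regions. Treated MLL1 of NUP98-HOXA9 and treated Menin of NUP98-HOXD13 both covered 260 new sites (4.35%).

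H3K4me3, the mark of active gene starts, was rare at new sites. In NUP98-HOXA9 it lay at 132 in DMSO (2.21%, 1.86% to 2.61%, against 32.2%) and at 160 after treatment (2.67%, 2.29% to 3.11%, against 33.5%), with 113 in both lists. Of the 577 new sites near a gene start, 91 (15.8%) had H3K4me3 after treatment, compared with 81.4% of the regions near a gene start that the line also had in DMSO. Between genes the counts were 8 of 2152 (0.372%). H3K4me3 after treatment was also less frequent at stronger new sites, with 5.81% below a fold of 5 and none of the 295 sites from a fold of 15. Between the same bins it fell from 15.1% to 4.41% in regions shared only with another line. In regions shared with the line's DMSO list it rose from 33.2% to 59.3%. Where no DMSO region was allowed within 1 kb, 1.33% of new sites had H3K4me3 after treatment, and in the shortened treated list 0.534%. In sum, 1328 new sites (22.2%) shared a base with at least 1 of the 6 other treated lists, and 4487 with none of the 9 lists outside the rule. All Menin and H3K4me3 lists come from other lines than the new sites. The rule removed every site at which those lines had MLL1 in DMSO. It thereby sets part of the low Menin and H3K4me3 shares by construction, so nothing is read from the gap to the whole list.

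**Figure D4:**
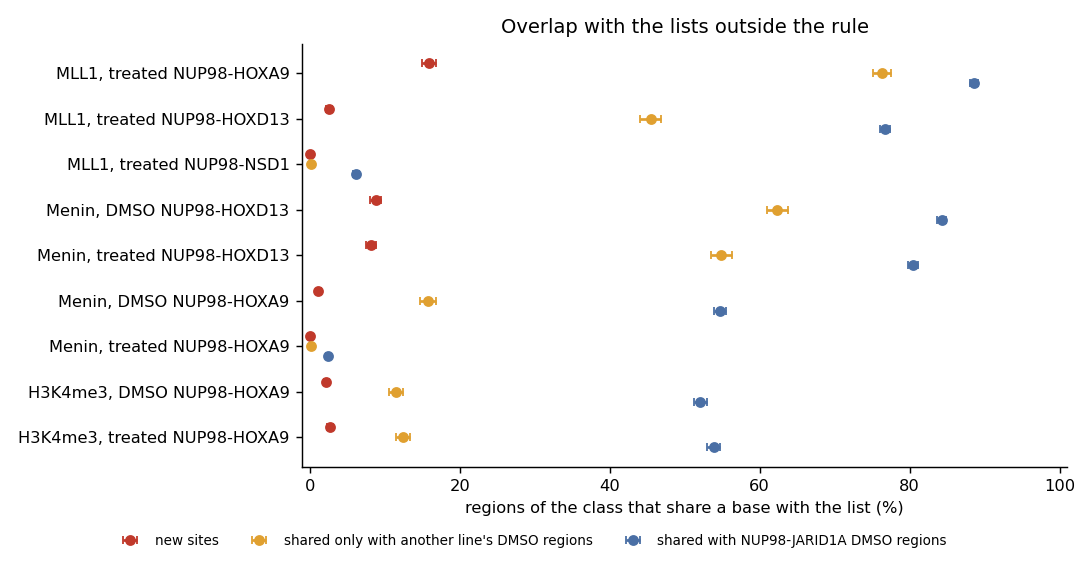
Share of treated NUP98-JARID1A MLL1 regions (x axis, percent) that share a base with each of 9 lists the rule did not use (y axis), for new sites and for the regions shared with DMSO lists, with 95% Wilson intervals as bars. New sites are lowest in each list, from 0% in treated NUP98-NSD1 to 15.8% in treated NUP98-HOXA9. The rule removed sites at which the lines of these lists had MLL1 in DMSO, which sets part of this order by construction.

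In all, 590 protein-coding genes (2.73% of 21631) had a new site within 1 kb of their start, or of either end where the strand was not known, and 371 (1.72%) of these had no DMSO region of any line in that window. That count was 52 with the shortened treated list and 1363 against the line's own DMSO list alone. The 15 genes with the highest fold were Dnase2b, Cd177, Gm7260, Il1f9, Retreg1, Gm31160, Pate11, Zfp558, Cd300ld, Pilrb2, Gm19774, Cd83, Fbxo15, Il4 and Orm1, with folds from 26.6 to 13.2. Of these 15, Cd177 is the only one that belongs to any of the 17 gene lists described further on. The strand of Gm19774, Cd83 and Fbxo15 was not known, so their sites lay at an end that need not be the start.

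Dnase2b encodes an acid deoxyribonuclease, and its site (chr3:146616485-146616984, fold 26.6) lay 887 bp from a gene start and 94989 bp from the nearest region of the line's DMSO list. It shared no base with any of the 9 other lists. Cd177 encodes a neutrophil surface protein that pairs with the protease PR3. Its strongest site (chr7:24761072-24761735, fold 26.2) lay 761 bp from the start, 84063 bp from the line's nearest DMSO region, and shared bases with treated MLL1 in NUP98-HOXA9. Il1f9, which encodes interleukin-36 gamma, had a site of fold 17.5 over its start that was also in treated MLL1 and treated Menin of NUP98-HOXD13. This one lay 811 bp from a DMSO region of any line and 901 bp from one of its own. Gm7260 (fold 21.7), Retreg1 (fold 16.7), Cd300ld (fold 15.3) and Pilrb2 (fold 14.4) had sites over their starts that were shared with treated MLL1 in NUP98-HOXA9. At Pilrb2, which encodes a paired immunoglobulin-like receptor, the site was 1429 bp wide, the widest at a named gene. Zfp558, a zinc finger gene, had a site of fold 15.6 over its start that was shared with treated MLL1 and both Menin lists of NUP98-HOXD13. At Retreg1 and Zfp558 the start under the site lay inside the span of the gene, away from either end. The sites at Cd83 (a surface protein of activated antigen-presenting cells, fold 13.7), Il4 (the cytokine interleukin-4, fold 13.6) and Orm1 (an acute phase protein, fold 13.2) were in none of the 9 other lists. Of the 15 sites, 7 lay over 40 kb from the nearest region of the line's DMSO list.

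Only 7 genes had a new site near the start (or either end if strand unknown) shared by treated MLL1 of both NUP98-HOXA9 and NUP98-HOXD13. They were C1qtnf12, B4galt7, Dcbld1, Dact1, Nxt2, Rpp30 and Gcnt4, with folds from 9.12 to 3.26. The sites at Nxt2, Gcnt4 and B4galt7 lay only 99, 154 and 417 bp from a DMSO region of any line. The nearest of the others, at C1qtnf12, lay 17631 bp from one. In all, 301 of the 5983 new sites lay within 500 bp of a DMSO region. For Dcbld1 the strand was not known, so its site lay at an end that need not be the start. All 7 sites were also in a Menin list of NUP98-HOXD13. At B4galt7 (a glycosaminoglycan enzyme), Rpp30 (a subunit of ribonuclease P) and Gcnt4 (a mucin glycosyltransferase) both H3K4me3 lists of NUP98-HOXA9 covered the site. The next widest new sites at named genes after Pilrb2 were at Tfeb, a lysosome transcription factor gene (1384 bp), the cohesin gene Stag2 (1377 bp), Tspoap1 (1334 bp) and the myosin chaperone gene Unc45b (1289 bp). Most new sites per gene lay in long genes: Syne1, a nuclear envelope protein gene spanning 531 kb, held 8 within its span plus 2 kb, and the thyroglobulin gene Tg held 7. Kcnh1, Pdzd2 and Ptprd held 6, as did St8sia1 and Wwox. Protein-coding genes with a new site in the gene or within 10 kb had a median span of 34.5 kb, against 17.3 kb for all.

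Genes were then grouped by 17 lists, counting a member when a new site lay in the gene or within 10 kb of it, as 17.7% of all protein-coding genes had. Neutrophil granule and effector genes had the highest share, 29 of 40 (72.5%, interval 57.2% to 83.9%), from 37 distinct sites, although their median span is short (8.02 kb). In DMSO the line had an MLL1 region by the same measure at as many members, 29 of 40, where 54.7% of all genes had one. At the start itself 8 of 40 (20.0%) had a new site, against 2.73% of all genes. With the shortened treated list the counts were 12 of 40 within 10 kb and 3 at the start, where 5.57% of all genes had a site within 10 kb. At the start, chemoattractant receptors had 6 of 40, monocyte genes 5 of 40, cytokines 4 of 37, mast cell and related markers 4 of 21 and MHC class II genes 2 of 11, and each of the other 11 lists had 0 or 1. New regions of NUP98-HOXA9 lay at 11 of 40 members, against 7.75% of all genes, those of NUP98-HOXD13 at 1, against 1.28%, and those of NUP98-NSD1 at 0, against 0.166%. Treated regions that NUP98-JARID1A also had in DMSO lay at 30 members, against 54.2% of all genes, and its DMSO regions absent from all treated lists at 3, against 4.54%.

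**Figure D5:**
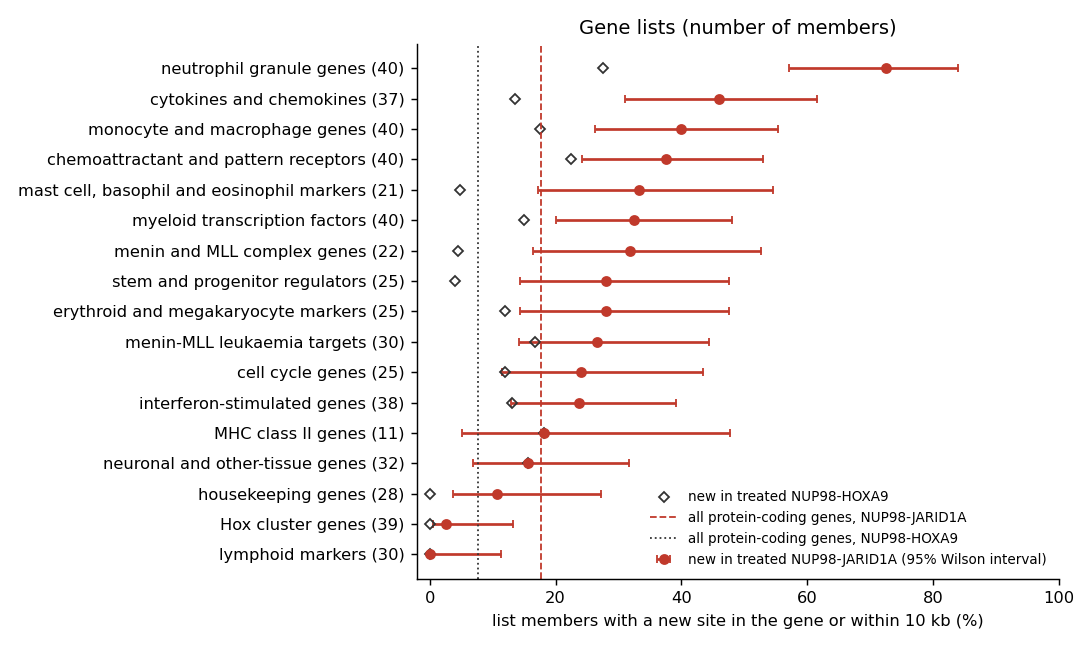
Share of list members with a new site in the gene or within 10 kb (x axis, percent) for 17 gene lists (y axis, number of members in parentheses). Filled points are new sites of treated NUP98-JARID1A with 95% Wilson intervals, open diamonds new regions of treated NUP98-HOXA9, and the vertical lines the shares over all protein-coding genes (17.7% and 7.75%): neutrophil granule genes are highest at 72.5% and lymphoid markers lowest at 0%.

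Among neutrophil genes, Cd177 had 3 sites and the highest fold. S100a9, which encodes a subunit of calprotectin, had a site of fold 25.5 (chr3:90682042-90682703) that lay 13018 bp from its start, beyond its 3′ end, and was shared with treated MLL1 in NUP98-HOXA9 and treated Menin in NUP98-HOXD13. Cybb, the gene of the oxidase subunit gp91phox, had one of fold 15.2 within the gene, 20648 bp from its start. Lcn2, the gene of the iron-scavenging granule protein lipocalin-2, had one of fold 14.4 that lay 5142 bp before its start and 2142 bp from the line's nearest DMSO region. Stfa3 (fold 12.5) had its site over the start, and Mmp8, the neutrophil collagenase gene (fold 12.3), within 10 kb. Cebpe, a transcription factor gene needed for secondary granules, had a site of fold 10.3 lying 2515 bp before its start. It is one of 96 new sites in treated MLL1 of both NUP98-HOXA9 and NUP98-HOXD13, and was also in treated Menin of NUP98-HOXD13. Other members with a site were the granule genes Camp (10.5), Olfm4 (9.69), Retnlg (8.36), Chil3 (7.90) and Ltf (4.80), and the oxidase genes Ncf4 (7.23), Cyba (6.42) and Ncf1 (4.94), with the highest fold in parentheses. Members without one included Mpo, Elane, Prtn3, Ctsg, Ngp, Bpi and Serpinb1a. Of these, Mpo, Elane, Prtn3 and Ctsg encode enzymes of primary granules, which form early in neutrophil maturation.

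The intervals of 4 other myeloid lists also lay above the share of all genes. They treat each gene as separate although neighbours can share a site, so they are a description only. Distinct new sites numbered 19 for cytokines, 20 for monocyte genes, 19 for receptors and 17 for transcription factors. Cytokines and chemokines had 17 of 37 (45.9%, 31.0% to 61.6%), with Il1b (fold 12.5 over its start), Tnfsf13b, which encodes the B cell survival factor BAFF (12.2), Ccl6 (7.98) and Il15 (7.51). Ccl3 and Ccl4, neighbouring chemokine genes, shared their strongest site (7.60). Monocyte and macrophage genes had 16 of 40 (40%, 26.3% to 55.4%), among them Cd86 (9.88), Fcgr3 (8.71) and F13a1 (8.27). The neighbours C1qa, C1qb and C1qc were counted from a single site of fold 7.60 that began 21 bp before the start of C1qc. Chemoattractant and pattern receptors had 15 of 40 (37.5%, 24.2% to 53.0%), where C5ar1 and C5ar2, receptors of complement C5a, shared a site of fold 18.5, and Tlr13 (13.3), Trem1 (12.5), Itgb2 (11.4) and Cxcr4 (9.88) followed. Myeloid transcription factors had 13 of 40 (32.5%, 20.1% to 48.0%), with Mitf (19.5), Rxra (11.02), Cebpe (10.3) and Spi1, the gene of PU.1 (8.75, and 4 sites in all). With the shortened treated list, which had a new site at 5.57% of all genes, these lists had 2 of 37 cytokines, 3 of 40 monocyte genes, 8 of 40 receptors and 4 of 40 transcription factors. Mast cell, basophil and eosinophil markers had 7 of 21 (33.3%, 17.2% to 54.6%), whose interval includes the share of all genes. Ear6, an eosinophil ribonuclease gene, had 3 sites, the strongest (21.3) lying 6687 bp from its start. Hdc, the gene of the histamine-forming enzyme (12.5), and Mcpt8, a basophil protease gene (11.7), had theirs within 1 kb of a start.

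In the remaining lists the intervals include 17.7%, except for lymphoid markers and Hox cluster genes, where they lie below it. None of the 30 lymphoid markers had a new site (interval up to 11.4%), although 7 had an MLL1 region in DMSO; against the line's own DMSO list alone 1 had one. Of 39 Hox cluster genes only Hoxa13 had one, a weak site (fold 3.8) over its start, while 17 had a region in DMSO. The Hox count depended on the rule: it was 4 of 39 when sharing required 50% of the shorter region, and 9 of 39 against the line's own DMSO list alone, where 30.5% of all genes had a site. Menin-MLL leukaemia targets had 8 of 30 (26.7%, 14.2% to 44.4%), led by Eya1 (19.4), Rnf220 (16.0) and Bcl2 (15.2), all inside the genes and none within 1 kb of a start. Stem and progenitor regulators had 7 of 25 (28.0%), led by Runx1 with 4 sites (12.2), and erythroid and megakaryocyte markers 7 of 25 (28.0%), led by Gata1 (17.5) and Vwf (15.6). Genes of the menin and MLL complexes had 7 of 22 (31.8%, 16.4% to 52.7%), with Wdr5 (11.02), Hcfc2 (10.5) and Setd1a (6.84). Interferon-stimulated genes had 9 of 38 (23.7%), of which Ifit1 and Ifit1bl1 shared a site of fold 11.4, and cell cycle genes 6 of 25 (24.0%), led by Aurkb (12.5) and Cdkn2d (12.2). MHC class II genes had 2 of 11 (18.2%), namely H2-Ab1 (5.66) and H2-Aa (5.32), both over the start or end of the gene. Neuronal and other-tissue genes had 5 of 32 (15.6%) and housekeeping genes 3 of 28 (10.7%), with Pgk1 (6.42) and Actb (4.18) among them.

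Gene families were chosen after values were seen and are set against the 17.7% of all protein-coding genes. In or within 10 kb of 8 of the 12 Cd300 receptor genes (66.7%) and 15 of 46 cystatin genes (32.6%) lay a new site, and neighbours in these clusters can share one. C-type lectin genes (Clec), many of them receptors of myeloid cells, had 5 of 33 (15.2%). Olfactory receptor genes had 22 of 1110 (1.98%), vomeronasal receptor genes 10 of 355 (2.82%) and ribosomal protein genes 8 of 97 (8.25%). By RefSeq gene type, 9.56% of new sites lay within 1 kb of a start or end of a protein-coding gene, 3.96% of a long noncoding RNA gene and 1.02% of a pseudogene. In regions shared with the line's DMSO list these shares were 59.9%, 10.4% and 0.774%.

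Over promoters, new sites covered 358 windows of 329 genes out of 32619 windows of 300 bases (250 before to 50 after a gene start). Their median GC content was 57.3%, against 63.0% for windows under a region shared with the line's DMSO list and 53.0% for all windows. Under regions shared only with another line it was 57.7%, close to that of new sites. GAGGAAGT was found on either strand in 29 of the 358 (8.10%, 5.70% to 11.4%), against 3.36% of windows under regions shared with the line's DMSO list and 3.22% of all windows. The shorter AGGAAG, which GAGGAAGT contains, was in 45.5% (40.4% to 50.7%), against 32.2% and 35.2%. The E-box word CAGGTG was in 26.8% (22.5% to 31.6%), against 15.9% and 20.3%, and the RUNX word TGTGGT in 19.6% (15.8% to 24.0%), against 11.3% and 16.6%. For TTGCNNNAA the share was 8.10%, against 6.47% and 9.63%, and for TGANTCA 7.54%, against 3.78% and 7.85%. The GC box GGGCGG was in 52.0% of windows under new sites, 71.9% of those under regions shared with the line's DMSO list and 35.9% of all. AGATAA, the word of GATA factors, was in 10.1% (7.35% to 13.6%), against 4.69% and 11.2%. The interferon-response word was in 3.63%, against 2.84% and 3.46%, TATAAA in 5.87%, against 5.27% and 13.7%, and CG in 98.3%, against 99.8% and 94.7%. In the 991 windows under regions shared only with another line, GAGGAAGT was in 3.94%, AGGAAG in 33.9% and CAGGTG in 19.5%. There TGTGGT was in 16.2% (14.1% to 18.7%), an interval that overlaps that of new sites. TTGCNNNAA was in 9.28% of them, TGANTCA in 6.36%, GGGCGG in 53.4% and AGATAA in 6.26%. The interferon-response word was in 2.42%, TATAAA in 8.68% and CG in 99.7%.

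Among intergenic new sites over 10 kb from any gene, of which there were 1089 (18.2%), the strongest lay nearest to Mctp2 (fold 27.9, 245390 bp away), Fabp5 (27.7), Itga1 (25.8), Appbp2 (22.8) and Gramd3 (22.8). Of these 5, the sites nearest Mctp2, Fabp5 and Appbp2 were also in treated MLL1 of NUP98-HOXA9, and that nearest Gramd3 was in treated Menin of NUP98-HOXD13. None of the 5 lay within 1 kb of a DMSO region, the nearest being 13934 bp away.

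MicroRNA genes were counted too, and 102 of 1228 (8.31%) had a new site within 10 kb. The 3 shown here were chosen after values were seen, because they are well known in myeloid cells: miR-223 is abundant in neutrophils, miR-142 in blood cells at large, and miR-146b acts in inflammatory signalling. Their mature sequences, from RefSeq (GRCm38.p6), are written with the seed (bases 2 to 8) in capitals, and no seed is shared.
mmu-miR-223-3p, chrX:96242884-96242905, plus strand: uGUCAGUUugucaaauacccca
mmu-miR-142a-3p, chr11:87756903-87756925, plus strand: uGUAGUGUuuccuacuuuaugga
mmu-miR-146b-5p, chr19:46342790-46342811, plus strand: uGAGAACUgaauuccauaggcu
The new site near Mir223 (fold 5.70) lay 1680 bp from the gene, that near Mir142 (fold 7.38, the wide site at Tspoap1) 2705 bp away, and that near Mir146b (fold 6.23) 1415 bp away. Of these, the site near Mir146b was also in treated MLL1 of NUP98-HOXA9.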

How the data were processed

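Peaks of 14 ChIP-seq libraries, 1 per condition, were used as deposited. Software listed per the submitters' processing notes comprises MACS2, bedtools and SAMtools, besides STAR 2.7.5a, Picard 2.9.4 and bcl2fastq 2.20.0.422, on build mm10. How these were set, and which input went with which library, is not given in the sources used here. The authors deposited 1 list per library. Beside coordinates, the deposited columns are a score, the fold enrichment (a ratio), −log10 p, −log10 q and the summit. Score was only checked against −log10 q, and −log10 p only ordered ties when the treated list was shortened. The authors' fold is compared only within 1 list. Depth is unknown from peak lists.

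Regions were compared by shared bases (at least 1 bp) on chromosomes 1 to 19 and X, with Python 3.11.15, numpy 2.4.6 and pandas 2.3.3, and the interval code was tested on simulated regions. Genes came from RefSeq (GRCm38.p6): 21631 protein-coding genes, of which 17274 have a strand and start from a promoter table, and both ends were used for the others. Places were assigned in the order start, end of a gene without strand, 3′ end (1 kb each), rest of the gene, intergenic. Named genes are the 15 of highest fold near a start, up to 8 also in 2 other treated MLL1 lists, the 5 with most sites, the 5 with the widest sites, the 5 strongest distal sites and up to 6 members per gene list by fold. Members beyond these, the Cd300 and other families and the microRNAs were named after their values were seen. The sites, gene lists and words were chosen with earlier results of these data known, and the 10 kb distance for lists, the bins of fold and the 1 kb distance between lists were chosen after seeing the data. Input libraries, and sequences of distal sites, were not analysed here.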

Additional observations from a re-analysis of the deposited data

How the results depend on the processing

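No paired analysis was possible because each condition is 1 library and no test was made. The number of new sites was 4919 to 6136 when sharing required 50% of the shorter region, no DMSO region was allowed within 1 kb, or lists were limited to −log10 q of at least 5. It was 1874 with the treated list limited to the length of the DMSO list, and 10755 against the NUP98-JARID1A DMSO list alone. In that order, the last 2 settings gave 4.86% and 15.7% near a gene start, 39.9% and 31.9% intergenic, 23.9% and 42.7% shared with treated MLL1 of NUP98-HOXA9, 3.31% and 21.6% with that of NUP98-HOXD13, and 52 and 1363 genes with a new site near the start and no DMSO region there. Neutrophil granule genes with a new site numbered 12 with the shorter list and 27 to 33 in the other settings. With no DMSO region within 1 kb, 7.64% were near a start and 37.3% intergenic. At −log10 q of at least 5, these were 8.03% and 37.4% for the treated list alone, with 17.6% shared with NUP98-HOXA9. For all lists at that limit, 8.65% were near a start and 17.3% shared with NUP98-HOXA9. Windows of 500 bp and 2 kb gave 7.14% and 13.5% near a start and 37.5% and 32.7% intergenic. Protein-coding genes alone gave 7.37% and 48.3%, and summits 8.59% near a start. A region within 1 kb in place of a shared base, chosen after seeing the data, gave 21.9% for NUP98-HOXA9 and 7.00% for NUP98-HOXD13. The share of new sites near a gene start was between 4.86% and 15.7% in these settings. The 52.7% of regions shared with the line's DMSO list was computed at the main setting only, so the gap was not recomputed for each setting. For the main results, 27 values stayed within 1.5 times (counts) or within the interval (shares) and 29 moved beyond. Of the 301 other values, 174 stayed by the same limits. The cause of these differences was not tested. Without depth, replicates or signal tracks, a site absent from a DMSO list is not shown to lack MLL1.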
